A study of Mus musculus with 8 samples.

Results

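The 33 genes described here belong to cholesterol and fatty acid metabolism, and were taken by gene symbol from the 49212 genes of the deposited count tables. They comprise 15 enzymes of sterol synthesis, 5 regulators, 6 genes of fatty acid synthesis, 2 of fatty acid uptake and binding, 3 of fatty acid oxidation and 2 of cholesterol efflux. RNA was sequenced from effector regulatory T (eTreg) cells, the CD44+ Foxp3-expressing CD4+ T cells, sorted from C57BL/6 mice. WT mice carried FoxP3YFP-Cre, and KO mice carried Prdm1fl/flFoxP3YFP-Cre, so that Cre recombinase, present in both genotypes, removes floxed Prdm1 (encoding Blimp1) in cells that express Foxp3. Mice of both genotypes bore subcutaneous B16.OVA melanoma, given at day 0, and were immunised with NP-OVA, first in CFA (day 0) and later in IFA (day 7). Cells came from the spleen and from the tumor (TIL eTreg) at a tumor volume of at most 1.5 cm3, with 2 libraries in each of the 4 groups. Ages are not in the labels. The labels do not say whether the libraries came from separate mice, so p-values measure only the spread between these libraries.

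Sterol synthesis turns acetyl-CoA into mevalonate, then into isoprenoid units and squalene, and then into lanosterol and cholesterol. SCAP carries the transcription factors SREBP1 and SREBP2 (encoded by Srebf1 and Srebf2) out of the endoplasmic reticulum when sterol is scarce, and Insig1 holds them back when it is plentiful. SREBP2 mainly drives sterol synthesis and SREBP1c fatty acid synthesis, whereas liver X receptors, such as that encoded by Nr1h2, drive the efflux pumps Abca1 and Abcg1. Regulatory T cells need the mevalonate pathway for their suppressive function, and in tumors they can take up fatty acids through the scavenger receptor CD36.

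SREBP is known to act at promoters together with NF-Y, which binds CCAAT boxes. The 250 bases upstream of RefSeq transcription starts (GRCm38.p6) were searched on both strands for CCAAT, for the sterol element TCACNCCAC and for the E-box CACGTG. These motifs do not overlap in the stretches shown. RefSeq promoters were given for 26 of the 33 genes, and a gene was counted if any of its starts had a match. CCAAT was present upstream of 12 of the 12 sterol synthesis genes with a promoter and of 1 of the 4 fatty acid synthesis genes (Fasn), against 37.5% of all 27025 genes with a promoter. For Pmvk and Dhcr7 it was not present at every start. TCACNCCAC was found in 1 of the 26 genes (Hmgcs1, 3.8%), against 1.2% of all genes. CACGTG was found in 6 of the 26 (23.1%), against 6.9%. The stretches shown are from genes whose tumor libraries exceeded the splenic ones in both genotypes, and they lie upstream of every annotated transcript of the gene. They hold the motifs upstream of Hmgcs1 (chr13:119690101-119690325, plus strand), Insig1 (chr5:28071181-28071331, plus strand) and Lss (chr10:76531528-76531562, plus strand), with the motifs in capitals.
Hmgcs1: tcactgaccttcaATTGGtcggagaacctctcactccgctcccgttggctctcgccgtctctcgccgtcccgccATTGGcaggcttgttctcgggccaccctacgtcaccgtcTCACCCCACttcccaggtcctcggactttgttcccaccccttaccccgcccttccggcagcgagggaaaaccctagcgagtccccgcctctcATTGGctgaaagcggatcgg
Insig1: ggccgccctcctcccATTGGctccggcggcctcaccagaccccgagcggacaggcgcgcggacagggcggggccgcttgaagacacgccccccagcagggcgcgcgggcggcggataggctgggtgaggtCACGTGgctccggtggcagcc
Lss: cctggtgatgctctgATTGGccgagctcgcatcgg
In these stretches the CCAAT boxes lie on the opposite strand and read ATTGG. A match describes the letters only. A missing match says nothing about binding.

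The 8 libraries held 27834676 to 43903859 counts on genes, and the floor of 3 counts equals 0.0683 to 0.108 CPM. CPM are read counts scaled to a common library total, here with TMM factors over the 8 libraries. Prdm1 stood at 90.7 and 75.1 CPM in the KO tumor libraries and at 108 and 192 in the WT tumor libraries. In spleen it stood at 40.6 and 53.4 CPM in KO and at 54.0 and 21.0004 in WT, so the groups overlapped. Counts over the whole gene do not show whether the floxed part is gone. The labelled cell type was least clear in the KO tumor libraries. There the summed level of 10 Treg and T cell identity genes was 2250 and 3670 CPM. It was 9619 and 13290 CPM in WT tumor and 5247 to 6167 in spleen. Foxp3 was at 10.2 and 2.99 CPM in the KO tumor libraries, against 25.5 and 60.5 in WT tumor and 43.0 to 69.6 in spleen. Cd8a reached 217 and 1214 CPM in the KO tumor libraries, against 71.8 and 9.68 in WT tumor. The summed level of 10 macrophage markers was 15865, 1854, 3365 and 569.6 CPM in KO tumor replicates 1 and 2 and WT tumor replicates 1 and 2, and 315 to 2203 in spleen. The summed level of 8 melanoma markers was 848 to 3274 CPM in tumor and at most 9.27 in spleen. The macrophage and melanoma lists had no member at 0 in all tumor libraries, and their part in the tumor values below was not tested. In these sorted bulk samples, more cells of a type and more RNA per cell cannot be told apart.

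Genes of sterol synthesis were higher in TIL than in splenic eTreg cells of WT mice. At an adjusted p under 0.05 and an absolute log2 fold change over 1 (edgeR's quasi-likelihood test), 6 of the 15 enzymes rose, by 3.84-fold (Msmo1) to 9.83-fold (Idi1), and none fell. Insig1 and Cd36 rose as well and Abcg1 fell, which made 8 of 33 genes higher and 1 lower, where 4.1% of all genes tested were higher and 1.87% lower. The median log2 fold change of the 15 enzymes was 1.45, against -0.04 for all genes tested. All 15 had a value above 0, and in 14 both tumor libraries exceeded both splenic libraries. Over all 33 genes this held for 26, against 25.1% of all genes.

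Hmgcs1 (chromosome 13, 119690462 to 119708086), which makes HMG-CoA, stood at 37.0 and 14.5 CPM in the WT spleen libraries (replicates 1 and 2) and at 253 and 159 CPM in the WT tumor libraries, a log2 fold change of 3.01 ± 0.57 (SE, n = 2 against 2, edgeR adjusted p = 0.0133). Idi1 (chromosome 13, 8885501 to 8892451), which interconverts the isoprenoid building blocks, stood at 13.2 and 3.53 CPM in spleen and at 111 and 52.8 CPM in tumor, a log2 fold change of 3.30 ± 0.67 (edgeR adjusted p = 0.0196). Sqle (chromosome 15, 59315077 to 59331192), the squalene epoxidase, stood at 26.9 and 17.3 CPM in spleen and at 159.7 and 102 CPM in tumor, a log2 fold change of 2.57 ± 0.48 (edgeR adjusted p = 0.0128). For all 3 genes the tumor and splenic libraries lay well apart, and WT spleen replicate 2 was the lowest library. Cyp51 (chromosome 5, 4081145 to 4104746), the lanosterol demethylase, stood at 50.1 and 18.3 CPM in spleen and at 387 and 205 CPM in tumor, a log2 fold change of 3.12 ± 0.60 (edgeR adjusted p = 0.0152). Msmo1 (chromosome 8, 64718139 to 64733792), the methyl sterol oxidase, stood at 61.4 and 48.7 CPM in spleen and at 247 and 175 CPM in tumor, a log2 fold change of 1.94 ± 0.45 (edgeR adjusted p = 0.0324). Hsd17b7 (chromosome 1, 169949535 to 169969241), the sterol ketone reductase, stood at 8.89 and 5.24 CPM in spleen and at 54.8 and 36.1 CPM in tumor, a log2 fold change of 2.69 ± 0.52 (edgeR adjusted p = 0.0149). Here too neither tumor library came down to the splenic range.

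Another 3 enzymes passed in DESeq2 only. Lss, which closes the sterol ring, stood at 18.9 and 7.99 CPM in WT spleen and at 72.3 and 39.5 CPM in WT tumor (log2 fold change 2.06 ± 0.56, adjusted p = 0.057 in edgeR and 0.00584 in DESeq2). Fdps, the farnesyl diphosphate synthase, stood at 23.3 and 32.0 CPM in spleen and at 91.4 and 60.2 CPM in tumor (1.45 ± 0.45, adjusted p = 0.0968 in edgeR and 0.032 in DESeq2). Fdft1, the squalene synthase, stood at 46.7 and 39.8 CPM in spleen and at 109 and 99.96 CPM in tumor (1.28 ± 0.42, adjusted p = 0.115 in edgeR and 0.0485 in DESeq2). Groups did not overlap for these 3 genes. The mevalonate kinases and decarboxylase Mvk, Pmvk and Mvd and the late enzymes Nsdhl, Sc5d and Dhcr7 passed in neither test, with log2 fold changes of 0.37 to 1.13, and of these only Dhcr7 had overlapping groups.

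The WT calls depended on single libraries. Without WT spleen replicate 2, none of the 33 genes passed in edgeR (213 of all genes did), although the median log2 fold change of the 15 enzymes was 1.61 and that of Hmgcs1 was 2.52 (edgeR adjusted p = 0.059). Without WT tumor replicate 1, only Hmgcs1, Idi1 and Cd36 passed (513 of all genes). WT spleen replicate 2 was the lowest splenic library for 22 of the 33 genes, against 40.8% of all genes.

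**Figure D1:**
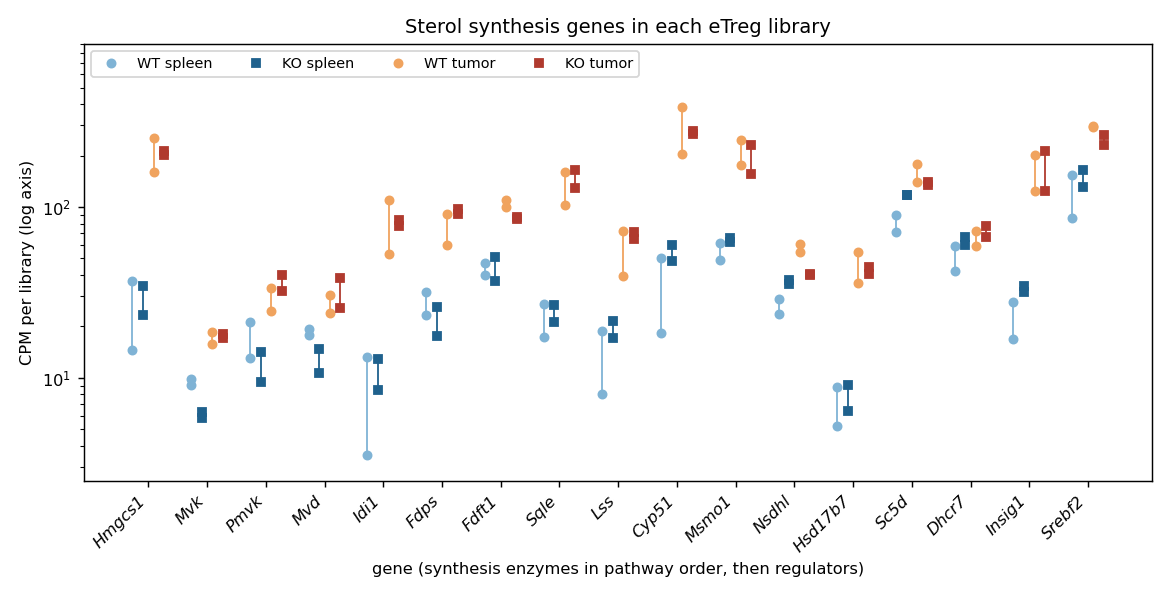
CPM (log axis) of the 15 sterol synthesis genes in pathway order, then Insig1 and Srebf2, with each library drawn as a point and the 2 libraries of a group joined by a line. For Hmgcs1, Idi1, Sqle, Cyp51 and Hsd17b7 all 4 tumor libraries lie above all 4 splenic libraries, while for Dhcr7 the WT groups overlap.

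The same question was asked in KO mice, whose TIL eTreg cells lack Blimp1 by design. Here too 6 of the 15 enzymes rose and no gene of the 33 fell, where 0.803% of all genes tested were higher and 0.543% lower. The median log2 fold change of the 15 enzymes was 1.63, against 0.01 for all genes, and in all 15 both tumor libraries exceeded both splenic ones. Over the 33 genes this held for 28, against 30.6% of all genes, and Cpt1a showed the opposite. For Dhcr7 the nearest libraries almost touched, at 66.5 CPM in KO tumor replicate 1 and 66.3 CPM in KO spleen replicate 1.

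In KO mice Hmgcs1 stood at 34.3 and 23.4 CPM in spleen and at 212 and 201 CPM in tumor, a log2 fold change of 2.86 ± 0.28 (edgeR adjusted p = 0.0374). Idi1 stood at 12.9 and 8.49 CPM in spleen and at 76.9 and 83.8 CPM in tumor, a log2 fold change of 2.92 ± 0.29 (edgeR adjusted p = 0.0374). Sqle stood at 26.7 and 21.1 CPM in spleen and at 165 and 129 CPM in tumor, a log2 fold change of 2.64 ± 0.27 (edgeR adjusted p = 0.0374). The KO tumor libraries lay within the range of the WT tumor libraries for Hmgcs1 and Idi1, and KO tumor replicate 1 lay just above it for Sqle. Cyp51 stood at 60.3 and 48.4 CPM in spleen and at 277 and 266 CPM in tumor, a log2 fold change of 2.34 ± 0.23 (edgeR adjusted p = 0.0374). Hsd17b7 stood at 9.04 and 6.38 CPM in spleen and at 44.7 and 40.4 CPM in tumor, a log2 fold change of 2.48 ± 0.30 (edgeR adjusted p = 0.0485). Lss (chromosome 10, 76531588 to 76557138) stood at 21.4 and 17.1 CPM in spleen and at 64.8 and 71.5 CPM in tumor, a log2 fold change of 1.84 ± 0.23 (edgeR adjusted p = 0.0486). Hmgcs1, Idi1, Sqle, Cyp51 and Hsd17b7 therefore passed in both genotypes, in comparisons that share no library.

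DESeq2 also passed Mvk, Pmvk, Mvd, Fdps, Fdft1 and Msmo1 in KO mice. Mvk, the mevalonate kinase, stood at 6.29 and 5.78 CPM in spleen and at 17.9 and 17.1 CPM in tumor (1.55 ± 0.29, adjusted p = 0.0626 in edgeR). Pmvk, which adds the second phosphate, stood at 14.2 and 9.40 CPM in spleen and at 40.2 and 32.2 CPM in tumor (1.63 ± 0.33, adjusted p = 0.0651 in edgeR). Mvd, the decarboxylase that follows, stood at 14.7 and 10.7 CPM in spleen and at 38.6 and 25.6 CPM in tumor (1.36 ± 0.35, adjusted p = 0.0847 in edgeR). These 3 steps from mevalonate to isopentenyl diphosphate had no overlap between KO spleen and KO tumor. Fdps stood at 26.1 and 17.6 CPM in spleen and at 97.5 and 90.7 CPM in tumor (2.12 ± 0.27, adjusted p = 0.0501 in edgeR). Fdft1 stood at 51.3 and 36.8 CPM in spleen and at 84.5 and 87.6 CPM in tumor (0.98 ± 0.24 in edgeR, 1.01 in DESeq2, adjusted p = 0.0424 in DESeq2). Msmo1 stood at 66.1 and 62.7 CPM in spleen and at 230.1 and 156 CPM in tumor (1.61 ± 0.28, adjusted p = 0.0599 in edgeR). Nsdhl, Sc5d and Dhcr7 had log2 fold changes of 0.16 to 0.23 and passed in neither test.

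Over all 33 genes, DESeq2 passed 14 higher and 1 lower in WT (6.5% and 3.42% of all genes) and 16 higher in KO (13.1% higher and 6.58% lower over all genes). Of the sterol enzymes, 9 passed in DESeq2 in both genotypes. In KO, leaving out either splenic library left no gene passing in edgeR, among the 33 or in the whole table. Leaving out KO tumor replicate 1, the library with the most macrophage marker RNA, gave 16 of the 33 genes (3549 of all genes), with Hmgcs1 at 2.80 and the median of the 15 enzymes at 1.50. Leaving out KO tumor replicate 2 gave 18 of the 33 (4958 of all genes).

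**Figure D2:**
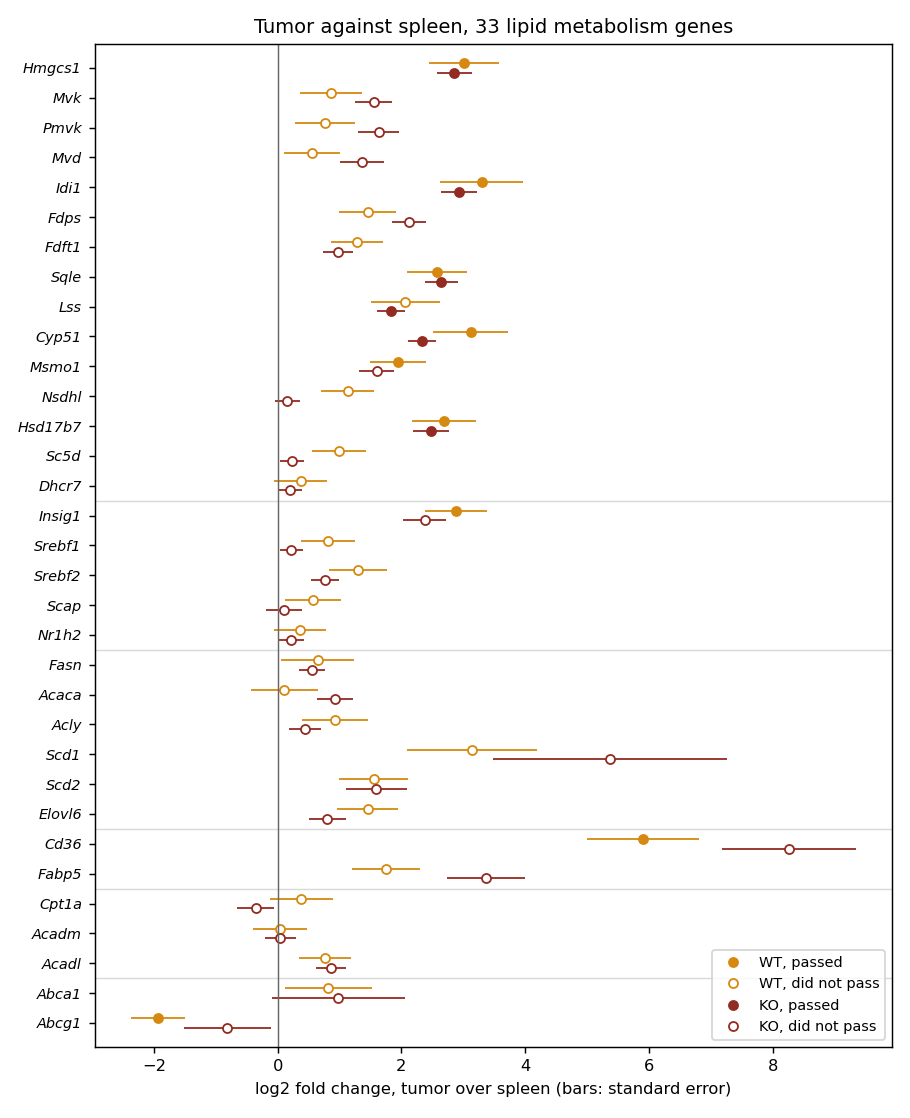
Log2 fold change of tumor over spleen for the 33 genes in WT (orange) and KO (red), with bars for the standard error and filled points for genes that passed the threshold in edgeR. Grey lines separate the roles, from sterol synthesis at the top to efflux at the bottom. Sterol synthesis values all lie above 0, whereas Abcg1 lies at -1.93 in WT and -0.81 in KO.

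Among the regulators, Insig1 (chromosome 5, 28071363 to 28078662), the sterol-sensing anchor of SCAP and itself an SREBP target, stood at 27.7 and 16.8 CPM in WT spleen and at 203 and 123 CPM in WT tumor, a log2 fold change of 2.88 ± 0.50 (edgeR adjusted p = 0.00917). In KO it stood at 31.6 and 34.5 CPM in spleen and at 214 and 125 CPM in tumor, a log2 fold change of 2.38 ± 0.35 (edgeR adjusted p = 0.0551). The tumor libraries were thus far above the splenic ones in both genotypes, and in KO Insig1 missed the threshold in edgeR and passed it in DESeq2 (adjusted p = 2.29e-06). Srebf2 stood at 154 and 86.4 CPM in WT spleen and at 292 and 297 CPM in WT tumor, with a log2 fold change of 1.30 ± 0.47 in WT and 0.77 ± 0.22 in KO. Srebf1, Scap and Nr1h2 had log2 fold changes of 0.10 to 0.82 over both genotypes. None of these 4 genes passed in either test.

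Fatty acid synthesis genes gave no call in edgeR in either genotype, with medians of 1.19 in WT and 0.86 in KO over the 6 genes. Scd1, a stearoyl-CoA desaturase that introduces the first double bond, stood at 0.18 and 2.17 CPM in WT spleen, 15.9 and 4.89 in WT tumor, 0 and 1.06 in KO spleen and 35.8 and 7.14 in KO tumor. It passed in DESeq2 in WT (log2 fold change 3.23, adjusted p = 0.00611). Its splenic counts were close to 0, and its tumor libraries differed 7.33-fold from lowest to highest. Scd2, another stearoyl-CoA desaturase, stood at 94.0 and 41.9 CPM in WT spleen, 275 and 122 in WT tumor, 109.7 and 99.2 in KO spleen and 440.1 and 178 in KO tumor. It passed in DESeq2 in KO (log2 fold change 1.63, adjusted p = 0.0213). Elovl6, which lengthens palmitate, stood at 10.8 and 7.88 CPM in WT spleen and at 26.1 and 25.0 in WT tumor, with KO libraries at 7.69 and 8.21 in spleen and at 14.3 and 13.1 in tumor. It passed in DESeq2 in WT (log2 fold change 1.51, adjusted p = 0.0357). Acly, which makes cytosolic acetyl-CoA, and Acaca and Fasn, which build palmitate from it, passed in no test, with log2 fold changes of 0.11 to 0.92.

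Cd36 (chromosome 5, 17781690 to 17888801), which takes up long-chain fatty acids and oxidised lipoprotein, stood at 1.83 and 1.46 CPM in WT spleen and at 174 and 23.2 CPM in WT tumor, a log2 fold change of 5.91 ± 0.91 (edgeR adjusted p = 0.00537). In KO it stood at 0.52 and 0.81 CPM in spleen and at 331 and 68.0 CPM in tumor, a log2 fold change of 8.27 ± 1.09 (edgeR adjusted p = 0.0501, past the threshold in DESeq2). The tumor libraries were high in both genotypes but varied 14.3-fold among themselves. Fabp5 (chromosome 3, 10012548 to 10016607), a cytosolic fatty acid carrier, stood at 46.1 and 89.7 CPM in WT spleen and at 313 and 145 CPM in WT tumor, a log2 fold change of 1.75 ± 0.55 (adjusted p = 0.0961 in edgeR and 0.0186 in DESeq2). In KO it stood at 59.3 and 58.4 CPM in spleen and at 899 and 290 CPM in tumor, a log2 fold change of 3.37 ± 0.63 (edgeR adjusted p = 0.0619, past the threshold in DESeq2). Groups did not overlap in either genotype.

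The oxidation genes gave no call. Cpt1a, which admits long-chain fatty acids to mitochondria, and the acyl-CoA dehydrogenases Acadm and Acadl had log2 fold changes of 0.04 to 0.76 in WT and -0.35 to 0.86 in KO, and none passed in either test. Of the efflux pumps, Abcg1 (chromosome 17, 31057698 to 31115777) stood at 78.2 and 108 CPM in WT spleen and at 25.8 and 23.1 CPM in WT tumor, a log2 fold change of -1.93 ± 0.44 (edgeR adjusted p = 0.0302). In KO it stood at 70.1 and 93.1 CPM in spleen and at 73.2 and 17.7 CPM in tumor (log2 fold change -0.81 ± 0.70), so that 1 KO tumor library lay in the splenic range. Abca1 had log2 fold changes of 0.82 ± 0.70 in WT and 0.98 ± 1.08 in KO, with overlapping groups.

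Whether loss of Blimp1 changed these genes was asked within each tissue. In the tumor none of the 33 genes passed in edgeR or in DESeq2, where 0% and 4.68% of all genes did. At an unadjusted p under 0.05 stood 1 gene, Elovl6, against 9.87% of all genes (edgeR). The median log2 fold change of KO over WT for the 15 sterol enzymes was 0.0022, their values ran from -0.52 to 0.31, and their SE ran from 0.26 to 0.41. That median ran from -0.30 (without WT tumor replicate 2) to 0.37 (without WT tumor replicate 1) when 1 library was left out, so its sign depended on the library. KO libraries lay above both WT libraries for Fasn, Acaca and Acadm (3 of 33, against 18% of all genes) and below both for Fdft1, Nsdhl, Sc5d, Srebf1, Srebf2 and Elovl6 (6 of 33, against 19.4%).

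Elovl6 differed by a log2 fold change of -0.90 ± 0.33 (edgeR adjusted p = 0.472) and Acaca, at 24.7 and 19.3 CPM in KO against 13.0 and 10.3 in WT tumor, by 0.92 ± 0.37 (edgeR adjusted p = 0.515). Fabp5 had the highest value of the 33 genes, 1.37 ± 0.67 (edgeR adjusted p = 0.601), and the WT value of 313 CPM exceeded the lower KO value of 290. Cd36, Scd1 and Abca1 had values of 1.01 to 1.06 with SE of 0.92 to 1.19, and their groups overlapped. Elovl6 and Acaca thus differed by more than the gap between replicates, but neither passed the test over all genes.

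In the spleen none of the 33 genes passed in edgeR or DESeq2 (0% and 0.416% of all genes), and none stood at an unadjusted p under 0.05 in edgeR (2.95% of all genes). The lowest edgeR adjusted p was 0.878. KO libraries lay above both WT libraries for 11 of 33 genes, against 16.4% of all genes, and below both for Mvk, Mvd and Cd36 (3 of 33, against 15.7%). Splenic Cd36 was low throughout, with a log2 fold change of -1.31 ± 0.62 (edgeR adjusted p = 0.878). The median log2 fold change of the 15 sterol enzymes was 0.16, and it ran from -0.09 to 0.61 when 1 library was left out. Without WT spleen replicate 1, WT spleen replicate 2 was the lone WT sample, the library that was lowest in spleen for 22 of the 33 genes, and 9 genes passed as higher in KO (Acly, Cpt1a, Cyp51, Fasn, Hmgcs1, Idi1, Insig1, Lss and Scd2) beside 3972 of all genes; without WT spleen replicate 2, none of the 33 did.

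The difference between the 2 tissue effects was tested over all 8 libraries as a genotype by tissue interaction. None of the 33 genes passed in edgeR or DESeq2 (0% and 1.85% of all genes), and 1 gene, Nsdhl, stood at an unadjusted p under 0.05 (edgeR), against 7.83%. For the 5 enzymes that passed in both genotypes the interaction ran from -0.79 ± 0.71 (Cyp51) to 0.06 ± 0.52 (Sqle). Cd36 had an interaction of 2.33 ± 1.35 (edgeR adjusted p = 0.767) and Fabp5 of 1.58 ± 0.84 (edgeR adjusted p = 0.727). The tumor increase was therefore not shown to differ between WT and KO for any of the 33 genes, at a precision that leaves changes of these sizes possible.

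**Figure D3:**
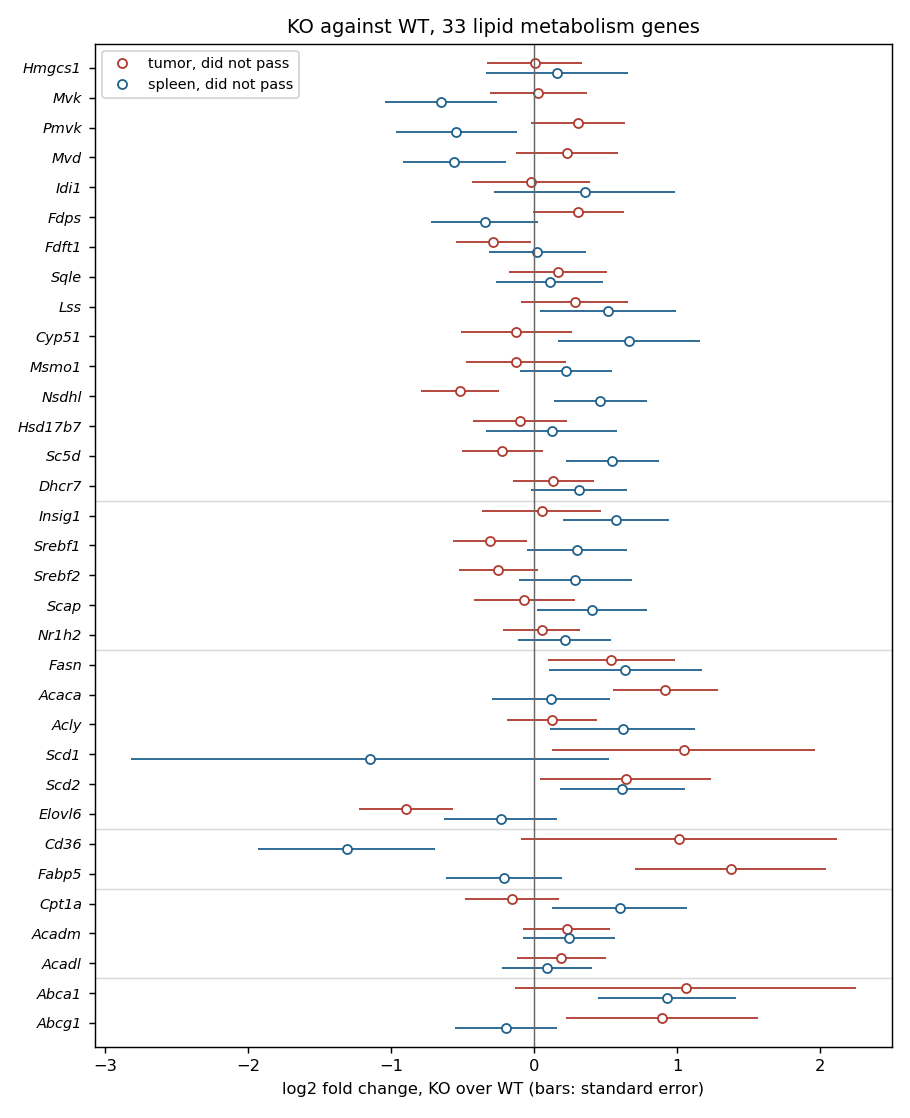
Log2 fold change of KO over WT for the 33 genes in tumor (red) and spleen (blue), with bars for the standard error. All points are open because none passed the threshold, and sterol synthesis values in tumor lie between -0.52 and 0.31.

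The roles differed in how evenly the 4 tumor libraries expressed them. The ratio of the highest to the lowest tumor library had a median of 1.59 over the sterol synthesis genes, 1.28 over the regulators, 1.45 over the oxidation genes and 2.41 over the fatty acid synthesis genes, against 2.07 over all genes tested. It was 14.3 for Cd36, 12.3 for Abca1, 7.33 for Scd1 and 6.21 for Fabp5. The tumor libraries stood in the order KO replicate 1, WT replicate 1, KO replicate 2, WT replicate 2 by summed macrophage markers. The same order was followed by 11 of the 33 genes (Pmvk, Mvd, Fdps, Sqle, Insig1, Acly, Scd1, Scd2, Cd36, Fabp5 and Abca1), against 7.6% of all genes tested. Macrophages are known to express Cd36, Fabp5 and Abca1 at high levels. By macrophage marker sum, WT spleen replicate 2 (2203 CPM) stood above KO tumor replicate 2 (1854) and WT tumor replicate 2 (569.6). In these libraries, in that order, Cd36 stood at 1.46, 68.0 and 23.2 CPM and Fabp5 at 89.7, 290 and 145. Abca1 stood at 12.3, 11.0 and 8.13 CPM. The part of macrophages in these values was not tested. The adipocyte markers, in contrast, summed to at most 1.11 CPM in any library, with 3 of the 5 at 0 in all tumor libraries.

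The summed CPM of the 15 sterol synthesis genes, by comparison, was 1874 and 1254 in WT tumor and 1590.2 and 1459 in KO tumor, against 506 and 372 in WT spleen and 563 and 482 in KO spleen. The 2 library sets did not overlap.

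**Figure D4:**
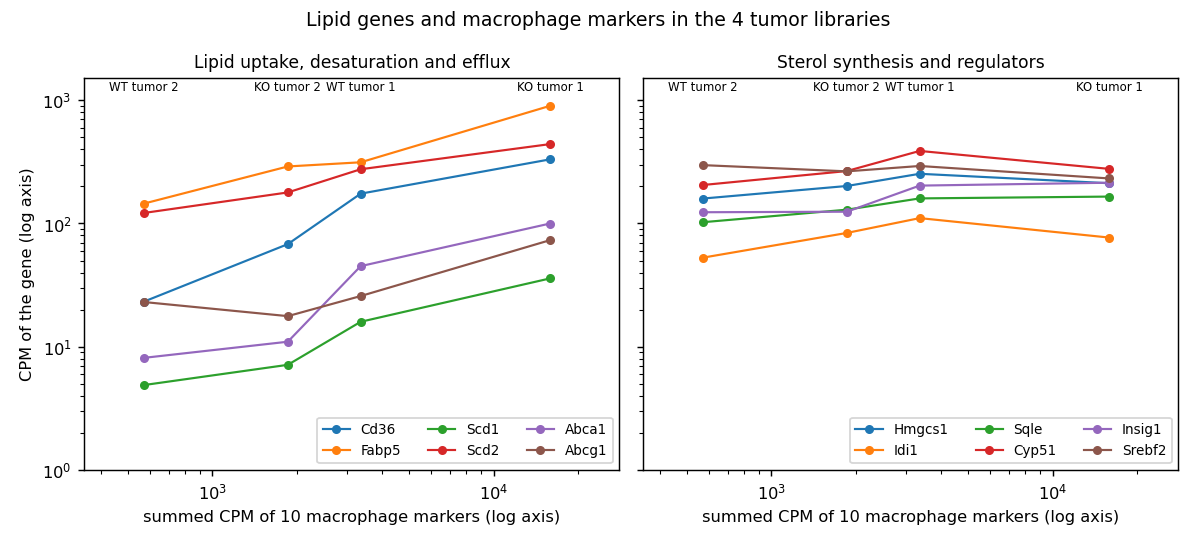
CPM (log axis) of 12 of the genes in the 4 tumor libraries, set against the summed CPM of 10 macrophage markers in the same library (log axis). Cd36, Fabp5, Scd1, Scd2 and Abca1 stand in the order of the marker sum from WT tumor replicate 2 to KO tumor replicate 1. Sqle and Insig1, in the sterol panel, stand in the same order. Hmgcs1, Idi1 and Cyp51 are highest in WT tumor replicate 1, and Abcg1 and Srebf2 do not follow the order either.

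Levels per kilobase of exon allow the genes to be set beside each other. Acly, Acadl, Cpt1a and Srebf2 held the 4 top ranks of the 33 in spleen in both genotypes, at 69.9, 47.9, 38.7 and 29.5 CPM per kb in KO. In tumor, Hmgcs1 moved from rank 17 to 5 in WT (7.95 to 63.7 CPM per kb) and from 19 to 4 in KO, and Cyp51 from 18 to 3 and from 13 to 5. Cd36 moved from rank 32 to 13 in WT and to 7 in KO. These ranks are of group means, and Cd36 stood at 48.6 and 6.47 CPM per kb in WT tumor replicates 1 and 2. In KO tumor it stood at 92.2 and 18.9. Abcg1 moved the other way, from 5 to 28 in WT and from 6 to 24 in KO. Fabp5 ranked first in KO tumor at 167 CPM per kb, with 252 in replicate 1 and 81.3 in replicate 2, so that its lead over Acly (93.6) rested on 1 library. Exon lengths join all annotated isoforms, which lowers the value of genes such as Lss with long alternative exons.

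Beyond the 33 genes, 102 other genes of these pathways were examined. In KO, 2 of 94 tested were higher in tumor in edgeR (0.803% of all genes), whereas DESeq2 passed 27 of 96 as higher and 4 as lower (13.1% and 6.58% of all genes). In KO against WT none passed in either tissue in edgeR, while DESeq2 passed 3 of 96 in tumor (4.68% of all genes) and 0 of 90 in spleen (0.416%). The 3 were Mlycd and Cyp27a1, higher in KO, and Dgat1, lower in KO, named here after their values were seen. Cyp27a1 stood at 13.9 and 1.68 CPM in KO tumor and at 1.19 and 0.675 CPM in WT tumor. Its difference thus rested largely on KO tumor replicate 1, the library with the highest sums of both macrophage and melanoma markers. In WT, edgeR passed 4.1% of all genes as higher in tumor and 1.87% as lower. For fatty acid synthesis, Me1, Fads2 and Elovl7 rose in WT (3 of 20 tested). They supply NADPH, add double bonds and lengthen chains, and all 3 were below 1 CPM in WT spleen. For lipid storage 3 of 19 rose: Hilpda, which limits triglyceride breakdown, by 4.09 ± 0.56 on the log2 scale, Plin2, a lipid droplet coat protein, by 3.26 ± 0.56, and Dgat1, which completes triglyceride synthesis. Dgat1 stood at 37.7 and 36.5 CPM in WT spleen and at 247 and 347 CPM in WT tumor. Hilpda also rose in KO, by 3.78 ± 0.28 (edgeR adjusted p = 0.0353). In the oxidation list 1 of 27 rose, close to the 4.1% over all genes, and 1 fell (1.87% over all genes). Ppargc1a, a mitochondrial coactivator, rose from at most 0.0713 CPM in WT spleen, under the floor, to 16.4 and 8.16 CPM in WT tumor. Mlycd, which degrades malonyl-CoA, fell, with a log2 fold change of -3.75 ± 0.60. Mlycd stood at 17.1 and 28.9 CPM in WT spleen and 1.83 and 1.59 in WT tumor, and at 17.9 and 19.0 in KO spleen and 14.8 and 12.6 in KO tumor. In the efflux list Ch25h, which makes 25-hydroxycholesterol, was at 0 in both WT spleen libraries and at 15.2 and 3.54 CPM in WT tumor, and it passed in KO as well. By summed melanoma markers the tumor libraries ran KO replicate 1, WT replicate 1, WT replicate 2, KO replicate 2. Me1, Elovl7, Plin2 and Ppargc1a followed that order, as did Abcg1 among the 33 genes. The share of all genes in the melanoma order was not computed. Fads2 and Ch25h followed the macrophage order, and Hilpda and Dgat1 neither. The part of tumor cells and macrophages in these values was not tested.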

How the data were processed

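RNA-seq of 8 eTreg libraries (spleen and tumor, WT and KO, 2 each) was analysed. The authors deposited raw counts per gene, made by trimming with Trimmomatic 0.36, alignment with STAR 2.5.2b to GRCm38 and counting of unique reads in exons with featureCounts (Subread 1.5.2), per the submitters' processing notes. Whether strand was used is not given in the sources used here, so overlapping genes are uncertain, and near-identical copies such as Fabp5 pseudogenes could share reads. A table of normalized counts was not used.

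R 4.3.3, edgeR 4.0.16 and DESeq2 1.42.0 were used. Each comparison was fitted on its 4 libraries (8 for the interaction) with edgeR's quasi-likelihood test, TMM scaling and filterByExpr, with Benjamini-Hochberg adjustment over all genes tested. Genes passed at an adjusted p under 0.05 and an absolute log2 fold change over 1. All 33 genes passed the filter in every comparison. Within every group the replicates' counts differed beyond sampling noise (chi-square over its degrees of freedom 41.2 to 384), and each library counted as 1 sample. The 33 genes and the lists were chosen with earlier results of these data known. Library values are given for genes that passed in edgeR or DESeq2, or whose KO and WT libraries did not overlap at an absolute log2 fold change over 1, and other pathway genes are named where they passed in edgeR, except for results not reported here. The scripts were tested on simulated data. The floor of 3 counts covers counting error only, since PCR copies of a molecule were not collapsed. Alternatives were DESeq2, its size factors, no filter, all 8 libraries, other thresholds, a replicate block and leaving out each library.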

Additional observations from a re-analysis of the deposited data

Results flagged for a closer look

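For 3 genes every KO library lay below every WT library in tumor and above every WT library in spleen, so that their KO effects pointed opposite ways in the 2 tissues. The interaction, as the tumor minus the spleen log2 fold change of KO over WT, was -0.98 ± 0.42 (SE) for Nsdhl (adjusted p = 0.623 in edgeR and 0.587 in DESeq2). It was -0.77 ± 0.42 for Sc5d (edgeR adjusted p = 0.744) and -0.61 ± 0.43 for Srebf1 (edgeR adjusted p = 0.82). None passed the test of the difference. For Sc5d in tumor the nearest libraries almost touched, at 139.2 CPM in KO replicate 2 and 139.6 CPM in WT replicate 2. For Srebf1 in spleen they stood at 76.7 CPM in KO replicate 2 and 76.3 CPM in WT replicate 1. The share of all genes with this opposite pattern was not computed. Taken by tissue, KO lay below WT without overlap in tumor for 19.4% of all genes and above it in spleen for 16.4%. For all 3 genes WT spleen replicate 2 was the lowest splenic library. Nsdhl stood at 54.6 and 60.7 CPM in WT tumor and at 39.9 and 40.6 CPM in KO tumor, and at 29.1 and 23.7 CPM in WT spleen and 35.3 and 37.5 CPM in KO spleen.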

How the results depend on the processing

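No value changed sign under any alternative for a gene that had passed. In WT tumor against spleen, 9 genes passed, against 15 in DESeq2 and 0 to 11 when 1 library was left out. In KO tumor against spleen, 6 genes passed, against 16 in DESeq2, 16 without a filter, 13 with all 8 libraries, and 0 to 18 when 1 library was left out. In spleen KO against WT, 0 genes passed, against 0 to 9 when 1 library was left out. In the interaction, 0 passed, against 1 without a filter (Cd36, 2.27, adjusted p = 0.0222 in edgeR). Over all genes, 981 passed in WT against 1805 in DESeq2, and 228 in KO against 3813 in DESeq2, 3183 without a filter and 1743 with all 8 libraries. Tumor KO against WT gave 0 under every alternative, where DESeq2 passed 761 of all genes, no filter 1072 and all 8 libraries 135. The cause of these changes was not tested. With 1 library left out, the lone sample is assumed to vary like the others. DESeq2's size factors, an adjusted p alone and an absolute log2 fold change over 2 kept every count within 1.5 times. The labels do not say whether libraries with the same replicate number share a mouse. Correlations of replicate differences cannot settle it, since each group has only 2 libraries. They were 0.155 between KO and WT spleen, 0.234 in tumor, -0.22 between KO spleen and tumor and -0.02 in WT. With a replicate block 2 genes passed in KO tumor against spleen (Hmgcs1 and Sqle), 11 in WT and 0 elsewhere. Over single genes and alternatives, 569 values kept their side of the threshold, 64 moved past it and 38 lost it.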

Other observations

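The summed level of 10 proliferation markers was 2242 and 720 CPM in WT tumor replicates 1 and 2 and 1148 and 2728 CPM in KO tumor replicates 1 and 2, against 523 to 749.6 CPM in spleen. Among the tumor libraries, the summed level of the 15 sterol synthesis genes was highest in WT tumor replicate 1 and that of the proliferation markers in KO tumor replicate 2. Both sums were lowest in WT tumor replicate 2. These are values from 4 libraries and no relation was tested.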
